A study of Mus musculus with 26 samples.

Results

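Cytosolic ribosomal protein genes were picked by symbol from the genes counted in every library. Members have the symbol Rpl or Rps with a number and at most one of the letters a, x or l after it, and Rplp0, Rplp1, Rplp2 and Rpsa were added. The rule uses symbols and no measured value, but it was set with earlier results of these data known. It took 83 of 54146 genes, 32 of the small (40S) and 51 of the large (60S) ribosomal subunit. The libraries were 3 of MA9+SETDB1 and 3 of MA9+EV. Both groups are cultures of lineage-negative mouse bone marrow cells transformed by a retrovirus with MLL-AF9 (MA9), a fusion oncogene of human leukemias. MA9+SETDB1 cells also received SETDB1, which methylates lysine 9 of histone H3, and MA9+EV cells the empty vector MSCVpuro. All were grown in IMDM with IL-3 and SCF over 8 to 12 weeks and selected with puromycin for 3 to 6 of them. The labels do not give the species of the SETDB1 cDNA, nor whether replicates came from separate transductions.

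A ribosome holds one copy of nearly every ribosomal protein, and the genes are transcribed strongly and together in growing cells. Their mRNAs typically start with a C and a run of pyrimidines, the terminal oligopyrimidine (TOP) motif, through which mTOR and the RNA-binding protein LARP1 control translation. In blood, loss of one copy of some of these genes causes Diamond-Blackfan anemia, a failure of red cell production. Many have processed pseudogenes, near-copies of the mRNA elsewhere in the genome.

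RefSeq promoters of GRCm38.p6 were found for 61 of the 83 members, and for 8 of the 11 members that passed the test described further on. The start regions of those 8 are shown as the annotated starts of the members that passed. Rpl39, a widely used gene, and its copy Rpl39l, which had no counted reads, follow for comparison. Each line holds 70 bases before and 30 bases after the most upstream start that the promoter set lists for the gene. For Rpl19, Rps12 and Rpl39l the RefSeq gene begins further upstream, at 98022003, 23787383 and 10170197, so the start used there is not its outermost one. Capitals mark the longest run of C and T from 20 bases before to 30 bases after the start, counted only inside that stretch. In the 8 these runs are 3 to 11 bases long, and 3 of them (Rpl13, Rplp2 and Rps12) reach 8 bases.
Rps21 (chr2:180257309-180257408, plus strand): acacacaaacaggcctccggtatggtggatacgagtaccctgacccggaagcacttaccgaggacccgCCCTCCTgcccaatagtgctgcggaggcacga
Rplp2 (chr7:141447581-141447680, plus strand): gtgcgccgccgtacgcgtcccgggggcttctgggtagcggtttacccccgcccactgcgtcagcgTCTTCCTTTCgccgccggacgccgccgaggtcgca
Rpl41 (chr10:128549139-128549238, minus strand): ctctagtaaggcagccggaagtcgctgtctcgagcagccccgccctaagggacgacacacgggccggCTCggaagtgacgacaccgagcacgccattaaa
Rpl13 (chr8:123102280-123102379, plus strand): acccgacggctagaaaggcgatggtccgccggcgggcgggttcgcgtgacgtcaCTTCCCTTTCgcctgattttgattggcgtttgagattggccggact
Rpl37a (chr1:72711190-72711289, plus strand): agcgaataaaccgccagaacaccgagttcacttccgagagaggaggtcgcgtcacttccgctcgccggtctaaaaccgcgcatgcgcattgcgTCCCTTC
Rpl19 (chr11:98026640-98026739, plus strand): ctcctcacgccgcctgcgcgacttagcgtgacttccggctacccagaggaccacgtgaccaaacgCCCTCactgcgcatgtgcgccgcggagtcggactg
Rpl10a (chr17:28328401-28328500, plus strand): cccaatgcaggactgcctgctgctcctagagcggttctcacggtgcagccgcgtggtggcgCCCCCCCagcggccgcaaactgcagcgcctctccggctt
Rps12 (chr10:23787180-23787279, minus strand): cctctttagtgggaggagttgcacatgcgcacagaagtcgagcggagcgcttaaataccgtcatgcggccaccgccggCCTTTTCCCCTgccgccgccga
Rpl39 (chrX:37085193-37085292, minus strand): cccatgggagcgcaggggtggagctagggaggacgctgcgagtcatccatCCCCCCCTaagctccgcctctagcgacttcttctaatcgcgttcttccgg
Rpl39l (chr16:10170158-10170257, plus strand): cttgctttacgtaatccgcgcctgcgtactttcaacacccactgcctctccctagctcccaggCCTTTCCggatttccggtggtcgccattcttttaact
In Rps21 and Rplp2 the run in capitals spans the annotated start. In Rpl13, Rpl10a, Rpl19 and Rpl41 it ends before the start used, and in Rps12 and Rpl37a it lies after it. Between 20 bases before and 50 bases after the start, 46 of the 61 members (75.4%) had a run of 8 or more pyrimidines, against 25.3% of the 27025 promoters of all genes. A C with at least 4 pyrimidines after it began within 5 bases of the start in 28 members (45.9%), against 18.5% of all. CCGGAAG, a core bound by ETS factors such as GABPA, stood on either strand of the 300-base promoter in 24 members (39.3%), against 9.14% of all. AAGATGGC, a core bound by YY1, stood in 8.2% of members, against 2.87% of all. TTTCCGG, whose reverse complement shares CCGGAA with the ETS core, stood in 13.1%, against 3.62%, and the TATA box letters TATAAA in 11.5%, against 14.2%. Members had a median of 21 CG dinucleotides in those 300 bases, against 7 over all. Of the 8 promoters of members that passed the test, 4 held CCGGAAG and 3 (37.5%) the C with pyrimidines at the start, against 45.9% of members. The long run stood in 6, and in 3 of these, Rps21, Rpl37a and Rpl41, it lies partly or wholly beyond the 30 bases shown. These are matches of letters, not bound sites.

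Setdb1 had 475, 605 and 607 CPM in the MA9+SETDB1 replicates and 105, 108 and 109 CPM in the MA9+EV replicates (CPM, read counts scaled to a common library size). Libraries held between 18070482 and 21531528 gene counts in MA9+SETDB1 and between 18165046 and 22561757 in MA9+EV. Replicate 1 stood apart in both groups, with a chi-square per degree of freedom of 80.5 to 105 against its group's other libraries, where replicates 2 and 3 gave 3.19 in MA9+SETDB1 and 4.38 in MA9+EV. Cell type markers moved with the groups. The 6 mast cell and basophil markers summed to 8905 to 9361 CPM in MA9+SETDB1 and 6.47 to 11.5 CPM in MA9+EV, and the 5 erythroid markers to 770.2 to 996 CPM and 0.743 to 1.51 CPM. The 4 neutrophil granule markers summed to 39.4 to 124 CPM in MA9+SETDB1 and 13484 to 14842 CPM in MA9+EV, and the 4 monocyte markers to 275 to 344 CPM and 2316 to 3824 CPM. Of the monocyte markers F13a1, Ly6c2 and Lyz2 were lower in MA9+SETDB1, but Csf1r was higher. Csf1r averaged 20.2 ± 3.37 CPM in MA9+SETDB1 and 4.2 ± 0.852 CPM in MA9+EV (SD, n = 3 each, adjusted p = 0.000295 in edgeR). The 5 myeloid markers were not at 0 in either group and summed to 705 to 785 CPM in MA9+SETDB1 and 954 to 1103 CPM in MA9+EV, while single markers went opposite ways. Kit, the SCF receptor, averaged 1.07 ± 1.22 CPM in MA9+SETDB1 and 114 ± 3.01 CPM in MA9+EV, Cd33 26.4 ± 13.4 CPM in MA9+SETDB1 and 273 ± 29.5 CPM in MA9+EV and Ptprc 105 ± 21.01 CPM in MA9+SETDB1 and 370.2 ± 84.7 CPM in MA9+EV, whereas Itgam averaged 405 ± 64.5 CPM in MA9+SETDB1 and 98.4 ± 2.36 CPM in MA9+EV (SD, n = 3 each; edgeR, adjusted p = 0.000232, 0.000322, 0.000637 and 5.88e-05). Spi1 did not pass (adjusted p = 0.501 in edgeR). The 4 stroma markers summed to 35.8 to 83.02 CPM in MA9+SETDB1 and 1.08 to 1.51 CPM in MA9+EV, where the MA9+SETDB1 sum came mostly from Pdgfrb. Pdgfrb averaged 54.1 ± 24.9 CPM in MA9+SETDB1 and 0.0612 ± 0.0343 CPM in MA9+EV (SD, n = 3 each; adjusted p = 2.68e-05 in edgeR). Lepr went the other way, at 0.321 ± 0.264 CPM in MA9+SETDB1 and 1.16 ± 0.186 CPM in MA9+EV (adjusted p = 0.0303 in edgeR). The 4 T cell markers summed to 2.57 to 6.96 CPM in MA9+SETDB1 and 6.44 to 6.76 CPM in MA9+EV, and the 4 B cell markers to 0 and at most 0.101 CPM, with 2 T cell and 3 B cell markers at 0 throughout. Their part in the results that follow was not tested. In bulk RNA, fewer cells of a type and less RNA per cell cannot be told apart.

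Ribosomal protein genes took a similar share of counted reads in both groups. Reads that align to more than 1 place were not counted, so these are not shares of the mRNA. All 83 together held 1.8%, 1.8% and 1.93% of gene counts in MA9+SETDB1 replicates 1, 2 and 3, and 1.51%, 1.96% and 1.89% in MA9+EV replicates 1, 2 and 3. The groups overlapped, with both the lowest and the highest share in MA9+EV. Means were 1.84% ± 0.0731 in MA9+SETDB1 and 1.79% ± 0.244 in MA9+EV (SD, n = 3 each). TMM scaling sets libraries to a common level through the bulk of the genes, and relative to the scaled library size the share was 1.82%, 2.03% and 2.15% in MA9+SETDB1 and 1.4%, 1.81% and 1.73% in MA9+EV. On that scale each MA9+SETDB1 library exceeded each MA9+EV library, replicate 1 of MA9+SETDB1 only narrowly.

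Within a group, members tended to be low in the same library. After TMM scaling, MA9+SETDB1 replicate 1 was the lowest of its group for 47 of 77 tested members (61%, against 45.6% of all tested genes), and MA9+EV replicate 1 for 54 (70.1%, against 47.6%). Large subunit over small subunit counts gave ratios of 1.41, 1.25 and 1.178 in MA9+SETDB1 replicates 1, 2 and 3, and 1.41, 1.23 and 1.29 in MA9+EV replicates 1, 2 and 3. Replicate 1 thus had the highest ratio in both groups, and the groups overlapped. The median coefficient of variation of a member was 10.5% in MA9+SETDB1 and 15.1% in MA9+EV, against 16.0% and 13.6% over all tested genes of any level. This spread depends on read number, and genes of like read number were not set beside the members.

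**Figure D1:**
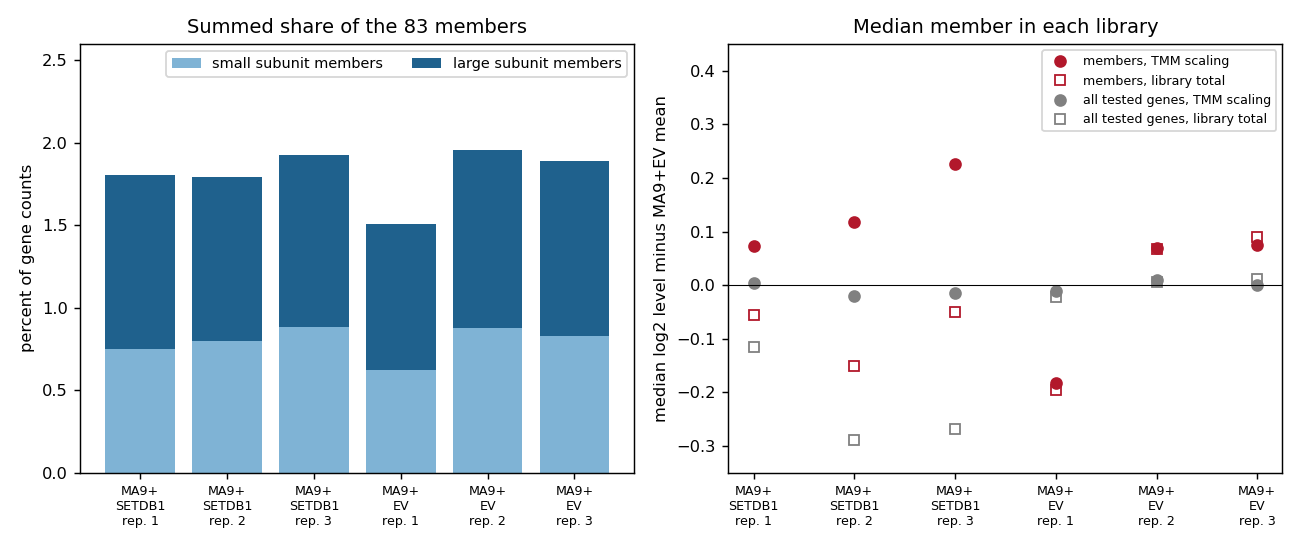
Left, percent of gene counts (y axis) held by the small and large subunit members, stacked, in 3 MA9+SETDB1 and 3 MA9+EV libraries. Right, median over the 77 tested members (red) and all tested genes (grey) of the log2 level minus the MA9+EV mean, with TMM scaling (filled) or library totals (open). The share is lowest in MA9+EV replicate 1, at 1.51%. In every library of both groups except MA9+EV replicate 1, the red points lie above the grey ones of the same scaling.

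Most ribosomal protein genes differed little between the groups. Of the 83 members, 77 passed the filter on low counts, and edgeR's quasi-likelihood test with Benjamini-Hochberg adjustment over 12986 genes called 9 of them higher and 2 lower at 0.05. That is 14.3% of the tested members, where 53.5% of all tested genes were called, 27.4% higher and 26.2% lower. No member passed a fold of 2 in the fit, whereas 35.3% of all tested genes did, and the largest change of a member was 1.84-fold. Members had a median log2 fold change of 0.14 (quartiles -0.062 and 0.32), all tested genes -0.011. Without MA9+EV replicate 1 the member median was 0.051 and that of all genes 0.0086, with 44 of 78 members positive. With all libraries, positive values were fitted for 55 of 77 (71.4%, against 49.5% of all tested genes), and for 28 with library totals in place of TMM. The libraries of the groups did not overlap for 27 members (35.1%, against 64.6% of all tested genes), 17 of them higher (32.1% of all) and 10 lower (32.5% of all). For 65 members the 95% interval lay within -1 and 1, so that a change of 2-fold or more was outside it.

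By subunit, the small subunit gave 1 higher and 1 lower of 31 tested (6.45%), with a median of 0.12. The large subunit gave 8 higher and 1 lower of 46 tested (19.6%), with a median of 0.17, where 53.5% of all tested genes were called. With the replicate number as a block, the small subunit gave 10 higher and 1 lower (35.5%). The large subunit gave 10 higher and 2 lower (26.1%) in that fit, where 58.2% of all tested genes were called.

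The number of members called depended on the libraries and the scaling used, as did the percent of all tested genes called, given in brackets. Between 76 and 80 members entered each fit. Leaving out 1 library at a time, edgeR called 21 higher and 5 lower (60.6%) without MA9+SETDB1 replicate 1, 2 higher and 0 lower (42.2%) without MA9+SETDB1 replicate 2 and 2 higher and 1 lower (43.4%) without MA9+SETDB1 replicate 3. Leaving out MA9+EV replicate 1 gave 5 higher and 3 lower (52.9%) and leaving out MA9+EV replicate 2 gave 3 higher and 1 lower (43.6%). Leaving out MA9+EV replicate 3 gave 7 higher and 1 lower (43.3%). Of the 11 called members, Rplp1 and Rps21 were the 2 called in all 6 of these fits. Among the named members not called with all libraries, Rpl5, Rpl31, Rpl7a, Rplp0, Rps14, Rps19, Rps27l and Rps4x passed without MA9+SETDB1 replicate 1 (adjusted p from 0.00289 to 0.048) and Rpl39 without MA9+EV replicate 3 (adjusted p = 0.0468). The replicate number as a block gave 20 higher and 3 lower (58.2%), including all 11. With replicates 2 and 3 of each group summed edgeR called 0 higher and 0 lower (30.3%), with 4 members at an unadjusted p under 0.05, and, chosen after seeing the data, leaving out replicate 1 of both groups gave 35 higher and 10 lower (79.2%). The other settings gave 12 higher and 3 lower (56.9%) with DESeq2, 9 higher and 2 lower (53.4%) with its size factors in edgeR, 6 higher and 1 lower (30.5%) without the filter and 5 higher and 3 lower (54.8%) with upper-quartile scaling. With library totals alone it was 1 higher and 10 lower (57.1%). That scaling kept the calls of Rplp1, Rps12 and Rpl10a, while Rpl13, Rpl19 and Rpl37a were not called with upper quartiles, and these and Rpl10a not without the filter. Library totals moved the median of all genes to -0.24 and of the members to -0.10. The member median minus that of all genes was 0.15 with TMM, 0.14 with totals, 0.10 without the filter and 0.043 without MA9+EV replicate 1, and at most 0.19 in the other fits.

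**Figure D2:**
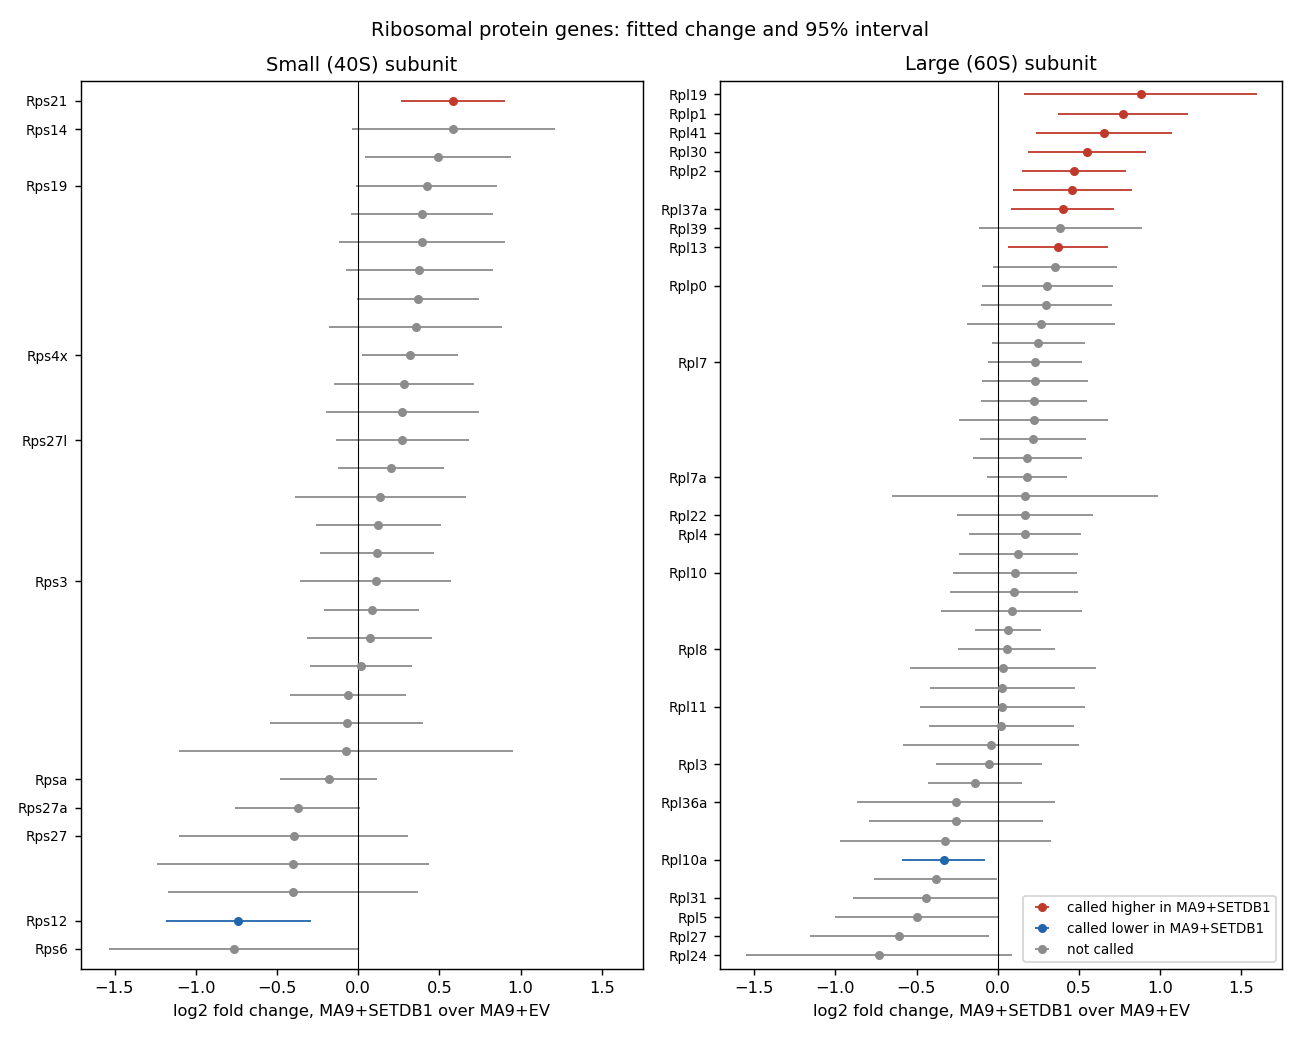
Fitted log2 fold change of MA9+SETDB1 over MA9+EV (x axis) with its 95% interval for each tested member, sorted and labelled where named in the text, in the small (31) and large (46) subunit. Red marks the 9 members called higher and blue the 2 called lower. Intervals are wide for members with few reads, such as Rpl24 with 56 reads in all.

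The P stalk, the arm of the large subunit that recruits translation factors, is built from Rplp0 at its base and the acidic proteins Rplp1 and Rplp2. Rplp1 had 1672, 1236 and 1186 CPM in the MA9+SETDB1 replicates and 762, 836 and 802 CPM in the MA9+EV replicates. The groups did not overlap and MA9+SETDB1 replicate 1 was the highest. Its log2 fold change of 0.77 ± 0.17 (SE; adjusted p = 0.00755 in edgeR) had the smallest p of the members, and the adjusted p without any 1 library was 0.00248 to 0.0349. Rplp2 had 248, 287 and 292 CPM in the MA9+SETDB1 replicates and 170.0, 205 and 222 CPM in the MA9+EV replicates. It rose without overlap by a log2 fold change of 0.47 ± 0.14 (SE; adjusted p = 0.0236 in edgeR), a call lost without MA9+EV replicate 2, MA9+SETDB1 replicate 2 or MA9+SETDB1 replicate 3 (adjusted p from 0.0107 to 0.081). Rplp0 had 1226, 1556 and 1646 CPM in the MA9+SETDB1 replicates and 1044, 1335 and 1201 CPM in the MA9+EV replicates. Its groups overlapped, and 0.31 ± 0.17 (log2, SE; adjusted p = 0.17 in edgeR), with a 95% interval of -0.098 to 0.71, did not pass.

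Other large subunit genes rose as well. Rpl41, which encodes a very short basic protein, had 248, 321 and 356 CPM in the MA9+SETDB1 replicates and 171, 229 and 188 CPM in the MA9+EV replicates. The groups did not overlap, and the log2 fold change was 0.66 ± 0.18 (SE; adjusted p = 0.0179 in edgeR). Rpl30, whose yeast counterpart blocks splicing of its own transcript, had 131, 156 and 148 CPM in the MA9+SETDB1 replicates and 83.7, 93.9 and 119 CPM in the MA9+EV replicates. Here too the groups were apart, at 0.55 ± 0.15 (log2, SE; adjusted p = 0.0205 in edgeR). Without 1 library the adjusted p of Rpl41 was 0.00371 to 0.0668, lost without MA9+EV replicate 3, MA9+SETDB1 replicate 2 or MA9+SETDB1 replicate 3, and that of Rpl30 0.011 to 0.0773, lost without MA9+EV replicate 2, MA9+SETDB1 replicate 2 or MA9+SETDB1 replicate 3.

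Rpl37a and Rpl13, structural proteins of the large subunit, had smaller rises. Rpl37a had 81.6, 97.6 and 101 CPM in the MA9+SETDB1 replicates and 61.98, 71.3 and 79.1 CPM in the MA9+EV replicates, with a value of 0.4 ± 0.13 (log2, SE; adjusted p = 0.0405 in edgeR). Rpl13 had 57.8, 65.3 and 65.7 CPM in the MA9+SETDB1 replicates and 41.5, 53.1 and 51.4 CPM in the MA9+EV replicates, with a value of 0.37 ± 0.13 (log2, SE; adjusted p = 0.0467 in edgeR). In both the lowest MA9+SETDB1 library lay only a little above the highest MA9+EV library. Rpl37a lost the call without MA9+EV replicate 1, MA9+EV replicate 2, MA9+SETDB1 replicate 2 or MA9+SETDB1 replicate 3, and Rpl13 without these or MA9+EV replicate 3, with adjusted p values up to 0.129 and 0.137. Rpl19 had the largest fitted rise from few reads, 388 in all, with 3.24, 4.57 and 5.09 CPM in the MA9+SETDB1 replicates and 1.9, 2.2 and 2.92 CPM in the MA9+EV replicates. Its groups did not overlap, the log2 fold change was 0.88 ± 0.3 (SE; adjusted p = 0.0443 in edgeR), and the call was kept only without MA9+SETDB1 replicate 1 (adjusted p from 0.016 to 0.151). Rpl19 overlaps the gene Cacnb1 in RefSeq and lends its name to 10 pseudogene symbols.

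Of the small subunit, Rps21 rose and Rps12 fell. Rps21, which is needed to mature the small subunit, had 196, 202 and 223 CPM in the MA9+SETDB1 replicates and 119, 160.2 and 134 CPM in the MA9+EV replicates. The groups were apart, at a log2 fold change of 0.59 ± 0.14 (SE; adjusted p = 0.00972 in edgeR), and without 1 library the adjusted p was 0.00849 to 0.0444. Rps12, which in Drosophila takes part in cell competition, had 13.6, 12.97 and 14.5 CPM in the MA9+SETDB1 replicates and 28.5, 20.6 and 19.3 CPM in the MA9+EV replicates. All MA9+SETDB1 libraries were lower, and MA9+EV replicate 1 was the highest. Rps12 fell by 0.74 ± 0.19 (log2, SE; adjusted p = 0.0146 in edgeR), a call lost without MA9+SETDB1 replicate 2 (adjusted p = 0.0569), and it lends its name to 24 pseudogene symbols. On the large subunit, Rpl10a had 49.7, 41.6 and 44.6 CPM in the MA9+SETDB1 replicates and 58.3, 54.6 and 58.3 CPM in the MA9+EV replicates. Rpl10a fell by 0.33 ± 0.11 (log2, SE; adjusted p = 0.0361 in edgeR), and the call was kept only without MA9+SETDB1 replicate 1 among the fits that leave out a library (adjusted p from 0.0107 to 0.145).

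**Figure D3:**
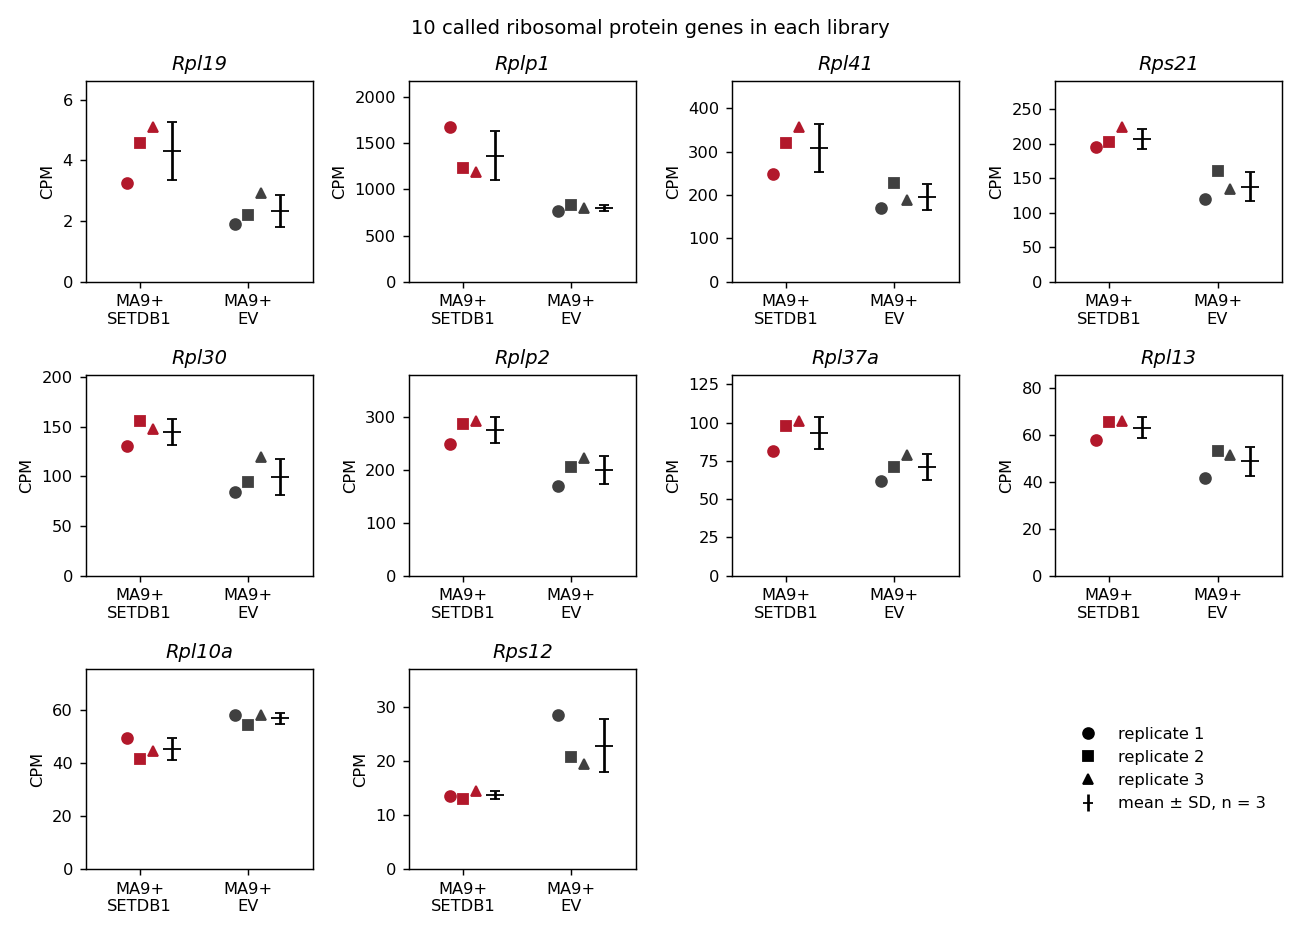
CPM (y axis, from 0) of 10 of the 11 called members, with MA9+SETDB1 left and MA9+EV right, 1 point a library and the mean with SD (n = 3) beside them. The groups do not overlap in any panel, and Rplp1 has at least 1186 CPM in MA9+SETDB1 and at most 836 CPM in MA9+EV.

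Genes tied to blood disease did not pass in the main fit, edgeR with TMM, all 6 libraries and no block. Of the members known for Diamond-Blackfan anemia there were 0 higher and 0 lower of 18 tested (0%, against 53.5% of all tested genes). Their median was 0.091 (all tested genes, -0.011). Of these 18, 2 had an unadjusted p under 0.05 in edgeR. For the settings that follow, brackets hold the percent of all tested genes called. DESeq2 called 0 higher and 1 lower (56.9%), and library totals gave 0 higher and 4 lower (57.1%). Upper-quartile scaling gave 0 higher and 1 lower (54.8%), and leaving out MA9+EV replicate 1 gave 0 higher and 1 lower (52.9%). The replicate block gave 4 higher and 1 lower of these 18 (58.2%), with Rpl18, Rps10, Rps19 and Rps24 higher and Rpl27 lower. Leaving out MA9+SETDB1 replicate 1 gave 3 higher and 3 lower (60.6%). Leaving out replicate 1 of both groups, chosen after seeing the data, gave 5 higher and 4 lower (79.2%). Rps19, the gene most often mutated in Diamond-Blackfan anemia, had 259, 312 and 368 CPM in the MA9+SETDB1 replicates and 191, 273 and 237 CPM in the MA9+EV replicates. The groups overlapped, at 0.42 ± 0.18 (log2, SE; adjusted p = 0.0915 in edgeR). Rps14, tied to the anemia of the 5q- syndrome, had 601, 898 and 1058 CPM in the MA9+SETDB1 replicates and 424, 695 and 585 CPM in the MA9+EV replicates. Replicate 1 was the lowest of both groups, and the log2 fold change was 0.59 ± 0.26 (SE; adjusted p = 0.101 in edgeR) with a 95% interval of -0.039 to 1.21. With the replicate number as a block both passed, Rps19 at 0.42 ± 0.12 (log2, SE; adjusted p = 0.03 in edgeR) and Rps14 at 0.58 ± 0.14 (log2, SE; adjusted p = 0.0185 in edgeR).

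Rpl5, Rpl11, Rps6 and Rpsa, members with known roles beyond a structural one, did not pass with all 6 libraries. Rpl5 and Rpl11 form the 5S particle, which in its free form holds back MDM2, the ligase that degrades p53. Rpl5 had 20.3, 13.4 and 12.5 CPM in the MA9+SETDB1 replicates and 21.3, 21.4 and 22.5 CPM in the MA9+EV replicates. The groups did not overlap, but MA9+SETDB1 replicate 1 lay close to MA9+EV, and -0.5 ± 0.21 (log2, SE; adjusted p = 0.0883 in edgeR) did not pass, with a 95% interval of -1 to 0.0087. Without MA9+SETDB1 replicate 1 it did (adjusted p = 0.00289). Rpl11 averaged 6.39 ± 1.06 CPM in MA9+SETDB1 and 6.26 ± 0.09 CPM in MA9+EV (SD, n = 3 each), a log2 fold change of 0.028 ± 0.21 (SE; adjusted p = 0.922 in edgeR) with a 95% interval of -0.48 to 0.54. Rps6, the protein that S6 kinases phosphorylate, had 1.34, 1.34 and 1.19 CPM in the MA9+SETDB1 replicates and 2.85, 1.53 and 2.22 CPM in the MA9+EV replicates from 219 reads in all. The values were lower in MA9+SETDB1 without overlap, and -0.77 ± 0.32 (log2, SE; adjusted p = 0.0842 in edgeR) did not pass. Rpsa, also known as a laminin receptor, averaged 21.1 ± 1.32 CPM in MA9+SETDB1 and 23.9 ± 1.31 CPM in MA9+EV (SD, n = 3 each), with a log2 fold change of -0.18 ± 0.13 (SE; adjusted p = 0.262 in edgeR).

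The other large negative values did not pass either. Rpl27 had 11.1, 9.13 and 9.87 CPM in the MA9+SETDB1 replicates and 19.99, 12.3 and 13.4 CPM in the MA9+EV replicates, a log2 fold change of -0.61 ± 0.23 (SE; adjusted p = 0.0631 in edgeR), and passed in the blocked fit at -0.58 ± 0.16 (log2, SE; adjusted p = 0.0335 in edgeR). Rpl31 had 18.7, 12.5 and 13.9 CPM in the MA9+SETDB1 replicates and 19.8, 19.6 and 22.01 CPM in the MA9+EV replicates, at -0.44 ± 0.19 (log2, SE; adjusted p = 0.0864 in edgeR), and passed without MA9+SETDB1 replicate 1 (adjusted p = 0.00859). Rpl24 had 0.28, 0.304 and 0.415 CPM in the MA9+SETDB1 replicates and 0.496, 0.581 and 0.604 CPM in the MA9+EV replicates, at -0.73 ± 0.34 (log2, SE; adjusted p = 0.116 in edgeR). All of them encode large subunit proteins and had no overlap between the groups.

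Read numbers spanned a wide range, and the fitted change differed with them. No transcript lengths were used, so read numbers are not levels that can be compared between genes. The 6 members of highest mean CPM, among them Rpl4, Rps3, Rpl8, Rplp0 and Rplp1, held 48.9% of all member counts. Rpl4 averaged 2398 ± 182 CPM in MA9+SETDB1 and 2137 ± 180.2 CPM in MA9+EV (SD, n = 3 each), at 0.17 ± 0.14 (log2, SE; adjusted p = 0.369 in edgeR). Rps3, which also acts in DNA repair, averaged 1555 ± 239.9 CPM in MA9+SETDB1 and 1442 ± 274 CPM in MA9+EV, at 0.11 ± 0.2 (log2, SE; adjusted p = 0.667 in edgeR). Rpl8 averaged 1384 ± 43.9 CPM in MA9+SETDB1 and 1333 ± 102 CPM in MA9+EV, at 0.055 ± 0.13 (log2, SE; adjusted p = 0.737 in edgeR). Of these genes with many reads only Rplp1 passed in the unblocked fit.

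Of 37 members with a mean over 100 CPM, 35 had positive values with TMM scaling and the median log2 fold change was 0.27, with 6 called higher and 0 lower. Between 10 and 100 CPM it was 13 of 23 with a median of 0.063, with 2 called higher and 2 lower. Of the 17 tested members under 10 CPM it was 7, with a median of -0.075, with 1 called higher and 0 lower. Over all tested genes of any level 49.5% were positive, 27.4% were called higher and 26.2% lower. Other genes of like read number were not set beside these members. Reads that align to more than 1 place do not enter the gene counts, and they made up 18.5% to 19.6% of entries in MA9+SETDB1 and 18.4% to 20.2% in MA9+EV. Named pseudogenes existed for 60 of the 83 members, up to 24 for one gene. The median of the mean CPM was 46.9 for the 59 tested members with such pseudogenes and 185 for the 18 without. How many reads each member lost through alignment to more than 1 place was not tested.

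**Figure D4:**
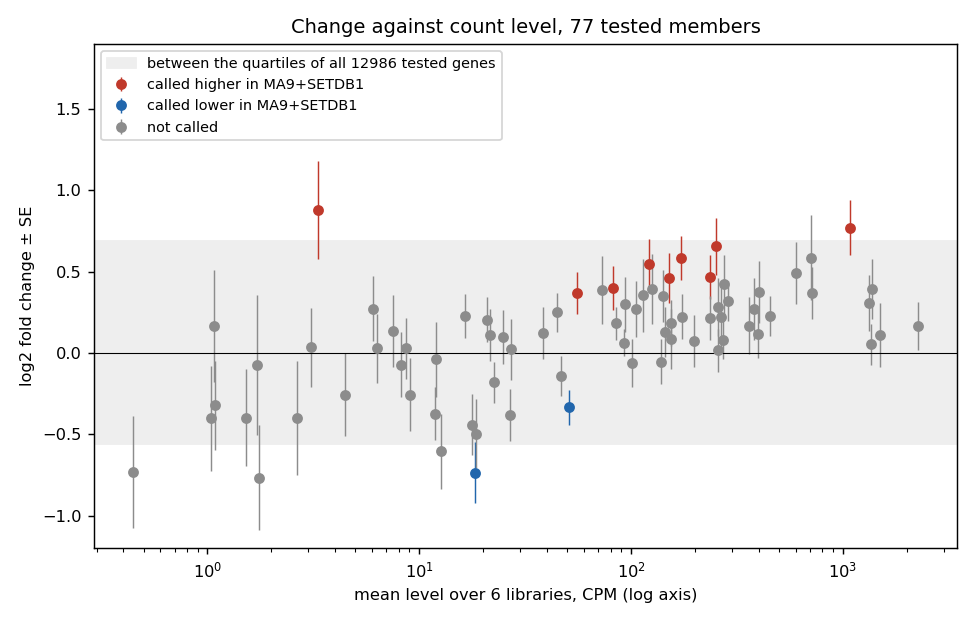
Log2 fold change with its SE (y axis) against mean CPM over 6 libraries (x axis, log scale) for the 77 tested members, with the quartile range of all tested genes in grey. Of 37 members over 100 CPM 35 lie above 0, and of 17 under 10 CPM 7 do, beside 49.5% of all tested genes of any level.

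The pseudogenes gave 5 higher and 0 lower of 25 tested (20%), with a median of 0.26, out of 300 listed. Over all tested genes 53.5% were called, 27.4% higher and 26.2% lower. Rps24-ps3 averaged 56.1 ± 7.91 CPM in MA9+SETDB1 and 38.7 ± 6.19 CPM in MA9+EV and Rpl14-ps1 34.6 ± 1.25 CPM in MA9+SETDB1 and 21.99 ± 5.95 CPM in MA9+EV (SD, n = 3 each; edgeR, adjusted p = 0.0315 and 0.0295). The calls of these 2 and of Rpl31-ps13 and Rpl36-ps12, at log2 fold changes of 1.32 and 1.1 (edgeR, adjusted p = 0.0166 and 0.0395), were lost in 4 to 6 of the 6 fits without 1 library, with adjusted p values up to 0.134. With the block Rpl36-ps12 was not called (adjusted p = 0.0693 in edgeR). The list gave 3 higher and 0 lower in that fit (12%, against 58.2% of all tested genes). With replicates 2 and 3 of each group summed these 4 were not called (edgeR, adjusted p from 0.0916 to 0.182). Reads of a pseudogene and its parent gene can be mistaken for each other, so these values are uncertain.

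Rpl10l, Rpl39l, Rps4l, Rpl6l, Rpl32l and Rpl3l had no or few counted reads, where reads that align to more than 1 place were not counted. Rpl10l and Rpl39l, known from the testis, and Rps4l had no counted read in any library. The limit that no read allows, 3 counts, would be between 0.124 and 0.183 CPM in a single library. Rpl6l had 2 and Rpl32l 5 reads in all, and RefSeq annotates Rpl6l and Rps4l as pseudogenes. Rpl3l, the form of Rpl3 in heart and skeletal muscle, had 4, 2 and 4 reads in the MA9+SETDB1 replicates and 3, 16 and 11 in the MA9+EV replicates. These 6 members did not pass the filter with all 6 libraries. Rpl3l did in other fits, and was called lower without MA9+EV replicate 1 and without replicate 1 of both groups. Of their counterparts, Rpl3 averaged 136 ± 18.4 CPM in MA9+SETDB1 and 141 ± 14.7 CPM in MA9+EV, Rpl10 22.3 ± 2.28 CPM in MA9+SETDB1 and 20.7 ± 2.94 CPM in MA9+EV and Rpl39 82.8 ± 9.56 CPM in MA9+SETDB1 and 63.4 ± 17.6 CPM in MA9+EV (SD, n = 3 each), with log2 fold changes of -0.054, 0.11 and 0.39 (edgeR, adjusted p = 0.764, 0.599 and 0.164). Rpl39 passed with the block at 0.42 ± 0.13 (log2, SE; adjusted p = 0.0423 in edgeR). Rps4x, the X-linked gene whose relative is Rps4l, had 295, 328 and 334 CPM in the MA9+SETDB1 replicates and 225, 258 and 283 CPM in the MA9+EV replicates. The groups did not overlap, and 0.32 ± 0.12 (log2, SE; adjusted p = 0.0654 in edgeR) did not pass with all 6 libraries, but did with the block at 0.32 ± 0.086 (log2, SE; adjusted p = 0.0278 in edgeR).

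The copies Rpl22l1 and Rpl7l1 were counted along with their partners Rpl22 and Rpl7. Rpl22, needed for T cell development, averaged 383 ± 49.7 CPM in MA9+SETDB1 and 342 ± 63.1 CPM in MA9+EV, and Rpl22l1 69.8 ± 4.76 CPM in MA9+SETDB1 and 61.2 ± 6.91 CPM in MA9+EV (SD, n = 3 each). The log2 ratio of Rpl22l1 over Rpl22 reads was -2.12, -2.63 and -2.6 in MA9+SETDB1 and -2.33, -2.46 and -2.61 in MA9+EV, with overlap. Rpl7l1, a relative of Rpl7 that acts in ribosome assembly, had 155, 141 and 153 CPM in the MA9+SETDB1 replicates and 227, 201 and 190.4 CPM in the MA9+EV replicates. Rpl7l1 fell by 0.46 ± 0.11 (log2, SE; adjusted p = 0.0102 in edgeR), a call lost without MA9+SETDB1 replicate 2 (adjusted p = 0.0541) or with replicates 2 and 3 of each group summed (adjusted p = 0.105), while Rpl7 had a log2 fold change of 0.23 ± 0.12 (SE; adjusted p = 0.155 in edgeR). The log2 ratio of Rpl7l1 over Rpl7 reads was -1.6, -1.76 and -1.78 in MA9+SETDB1 and -0.71, -1.16 and -1.2 in MA9+EV, without overlap. Rpl7a, which shares the number but is another protein, had a log2 fold change of 0.18 ± 0.1 (SE; adjusted p = 0.178 in edgeR).

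Rps27l, a p53-responsive copy of Rps27, had 88.5, 119 and 138 CPM in the MA9+SETDB1 replicates and 88.8, 104 and 93.6 CPM in the MA9+EV replicates, at 0.27 ± 0.17 (log2, SE; adjusted p = 0.226 in edgeR). Rps27 itself had 188 reads in all and a log2 fold change of -0.4 ± 0.3 (SE; adjusted p = 0.295 in edgeR). Rpl36a and Rpl36al had log2 fold changes of -0.26 and -0.12 (edgeR, adjusted p = 0.43 and 0.686). Rps27a, which encodes a ribosomal protein fused to ubiquitin, had a log2 fold change of -0.37 ± 0.16 (SE; adjusted p = 0.0912 in edgeR). None of these genes passed with all 6 libraries.

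Ribosomal proteins that the symbol rule leaves out gave 0 higher and 1 lower of 8 tested (12.5%, against 53.5% of all tested genes). Their median was 0.19, and the only gene called was Rpl7l1. Rack1, a scaffold on the head of the small subunit, had 2319, 2810.2 and 3145 CPM in the MA9+SETDB1 replicates and 1544, 2252 and 1924 CPM in the MA9+EV replicates. The groups did not overlap, and 0.53 ± 0.2 (log2, SE; adjusted p = 0.0599 in edgeR) missed the threshold but passed with the block at 0.54 ± 0.15 (log2, SE; adjusted p = 0.0305 in edgeR). Rps27rt had a log2 fold change of 0.6 ± 0.35 (SE; adjusted p = 0.187 in edgeR), and Rps3a1, the mouse gene for RPS3A, looked up after its values were seen, of 0.36 ± 0.28 (log2, SE; adjusted p = 0.311 in edgeR).

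Other genes with TOP mRNAs, which share the start motif, gave 5 higher and 4 lower of 20 tested (45%), with a median of 0.076, where 53.5% of all tested genes were called, 27.4% higher and 26.2% lower. For each list that follows, brackets hold the percent called, beside the same 53.5%. Fewer genes were called with replicates 2 and 3 of each group summed, 0 higher and 1 lower here, where 30.3% of all genes were. Eef2, the factor that moves the ribosome along the mRNA, averaged 4227 ± 95.3 CPM in MA9+SETDB1 and 2625 ± 189.6 CPM in MA9+EV (SD, n = 3 each), a log2 fold change of 0.69 ± 0.14 (SE; adjusted p = 0.00634 in edgeR). Tpt1, which encodes translationally controlled tumor protein, rose by 0.92 ± 0.18 (log2, SE; adjusted p = 0.00507 in edgeR). Snhg1, a host of small nucleolar RNAs, fell by 0.74 ± 0.1 (log2, SE; adjusted p = 0.000986 in edgeR), and Nap1l1, a histone chaperone, by 0.51 ± 0.097 (log2, SE; adjusted p = 0.00407 in edgeR). In the summed fit Eef2, Tpt1 and Nap1l1 were not called (adjusted p = 0.151, 0.0688 and 0.0966 in edgeR). Translation factors gave 11 higher and 12 lower of 64 tested (35.9%), with a median of -0.06, and 3 higher and 3 lower in the summed fit. Eif5a2 averaged 29.5 ± 3.72 CPM in MA9+SETDB1 and 1.52 ± 0.314 CPM in MA9+EV and Eif4e3 0.192 ± 0.158 CPM in MA9+SETDB1 and 36.02 ± 12.1 CPM in MA9+EV (SD, n = 3 each; edgeR, adjusted p = 1.98e-05 and 6.56e-05). Eif2d rose by 1.31 ± 0.15 (log2, SE; adjusted p = 0.000463 in edgeR) and Eif2ak2, the kinase PKR that shuts initiation down, fell by 0.91 ± 0.12 (log2, SE; adjusted p = 0.000795 in edgeR).

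The next list joined genes of the mTOR pathway, which acts on TOP mRNAs, with S6 kinases and related kinases, among them the RSK and MSK family. It gave 2 higher and 4 lower of 21 tested (28.6%), with a median of -0.11. The replicate block gave 2 higher and 7 lower (42.9%), where 58.2% of all tested genes were called. Summing replicates 2 and 3 of each group gave 1 higher and 1 lower. Rptor, the mTORC1 subunit that binds substrates, averaged 39.1 ± 0.379 CPM in MA9+SETDB1 and 68.6 ± 2.07 CPM in MA9+EV (SD, n = 3 each) and fell by 0.81 ± 0.09 (log2, SE; adjusted p = 0.00041 in edgeR). Rps6kl1, a relative of the S6 kinases, averaged 24.5 ± 2.72 CPM in MA9+SETDB1 and 0.219 ± 0.0252 CPM in MA9+EV (edgeR, adjusted p = 3.89e-06). Rps6ka4 rose by 0.58 ± 0.098 (log2, SE; adjusted p = 0.00257 in edgeR) and Rps6ka5 fell by 0.94 ± 0.17 (log2, SE; adjusted p = 0.00315 in edgeR), both being kinases of the RSK and MSK family, and neither was called in the summed fit (adjusted p = 0.0768 and 0.0632 in edgeR). Mtor and Larp1 did not pass, with log2 fold changes of 0.036 and -0.25 (edgeR, adjusted p = 0.779 and 0.128). Promoter factors gave 4 higher and 2 lower of 10 tested (60%), with a median of -0.08, and 1 higher and 1 lower in the summed fit. Gabpa, whose core letters stand in 39.3% of member promoters, averaged 77.3 ± 4.5 CPM in MA9+SETDB1 and 125 ± 9.84 CPM in MA9+EV (SD, n = 3 each) and fell by 0.69 ± 0.1 (log2, SE; adjusted p = 0.00148 in edgeR). Max, the partner of MYC, rose by 0.58 ± 0.09 (log2, SE; adjusted p = 0.00176 in edgeR) and Ubtf, a factor of rRNA genes, fell by 0.59 ± 0.097 (log2, SE; adjusted p = 0.00224 in edgeR). The calls of Max and Ubtf were lost in the summed fit (adjusted p = 0.0573 and 0.0685 in edgeR). Mycn had 16.4, 49.4 and 47.6 CPM in the MA9+SETDB1 replicates and no read in MA9+EV, while Myc had a log2 fold change of -0.23 ± 0.15 (SE; adjusted p = 0.252 in edgeR).

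Chaperones and importins of ribosomal proteins, taken with the 5S particle and its p53 branch, gave 5 higher and 9 lower of 20 tested (70%), with a median of -0.13, and 4 higher and 5 lower with replicates 2 and 3 of each group summed. Tsr2, which escorts RPS26, averaged 18.6 ± 0.946 CPM in MA9+SETDB1 and 45.3 ± 4.51 CPM in MA9+EV (SD, n = 3 each) and fell by 1.28 ± 0.12 (log2, SE; adjusted p = 0.000239 in edgeR). Rrs1, an assembly factor of the 5S particle, fell by 0.98 ± 0.09 (log2, SE; adjusted p = 0.000188 in edgeR). Ipo4, an importin, and Mdm2 rose by 1.5 ± 0.13 (log2, SE; adjusted p = 0.000163 in edgeR) and 1.01 ± 0.093 (log2, SE; adjusted p = 0.000188 in edgeR). Mitochondrial ribosomal proteins, encoded by other nuclear genes, gave 2 higher and 27 lower of 77 tested (37.7%), with a median of -0.23, beside 9 higher and 2 lower of 77 tested (14.3%), with a median of 0.14 for the cytosolic ones. In the summed fit the mitochondrial list gave 1 higher and 7 lower. The difference between these families was not tested. Mrps25, Mrpl44 and Mrpl50 fell by 0.95, 0.87 and 0.95 on the log2 scale (edgeR, adjusted p = 0.000333, 0.000334 and 0.000735), and Mrpl52 averaged 65.4 ± 2.58 CPM in MA9+SETDB1 and 12.5 ± 2.11 CPM in MA9+EV (SD, n = 3 each; edgeR, adjusted p = 3.69e-05).

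**Figure D5:**
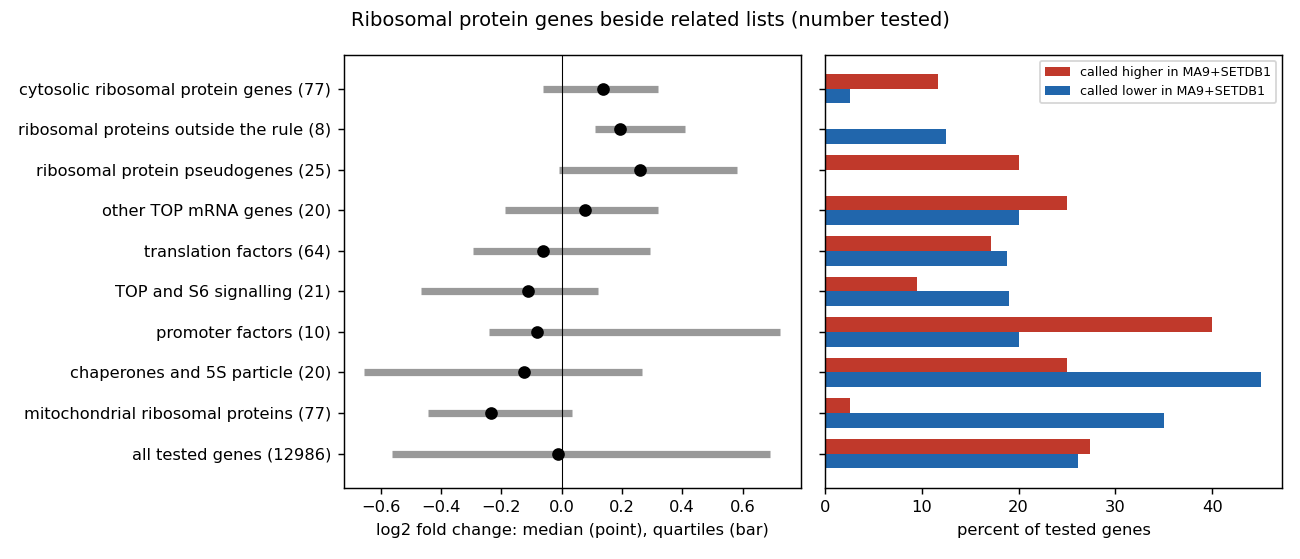
Left, median (point) and quartiles (bar) of the log2 fold change of MA9+SETDB1 over MA9+EV for the cytosolic ribosomal protein genes, related lists and all tested genes, number tested in brackets. Right, percent of tested genes called higher (red) or lower (blue), 11.7% and 2.6% for the cytosolic ribosomal protein genes and 27.4% and 26.2% for all tested genes.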

How the data were processed

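Polyadenylated RNA of 6 libraries was analysed; the other 20 samples of the series were not analysed here. The deposited files hold whole-number read counts per Ensembl gene, not normalized. The submitters' processing notes give the build GRCm38 and, with no role or order, tools that include STAR 2.6.0c and HTSeq 0.11.0. The sources used here do not give the strand setting of the counting, and 19 of the 83 members overlap another RefSeq gene, so reads there are uncertain. The 5 summary lines (no gene 4.45% to 5.51%, ambiguous 1.14% to 1.2%, aligned to more than 1 place 18.4% to 20.2% of entries) stayed out of library sizes and tests. Symbols were matched for 52480 identifiers with version and 1599 without it, and not for 67. Groups come from sample titles. Genes were filtered with filterByExpr, scaled with TMM and tested in edgeR 4.0.16 (limma 3.58.1, R 4.3.3; DESeq2 1.42.0 as an alternative), after the code was tested on simulated data; SEs were derived from the F statistic, and the biological coefficient of variation common to all genes was 0.244. Reads carry no molecular identifiers, so floors of 3 counts cover counting error only, and p-values reflect the spread of these libraries, which may be partly technical.

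Members, lists and tests were chosen with earlier results of these data known. Named members are those called, the 6 largest fitted changes per direction, the 6 of highest mean CPM, the paralog pairs, members with set roles and those not tested; of each list, up to 4 genes with the smallest p. Mtor, Larp1, Myc, Rps3a1, Rpl18, Rps10, Rps24 and the cell type markers fall outside this rule, and the results of 4 genes are not reported here. Deviations from the group means of same-numbered libraries correlated at 0.271, 0.225 and 0.205 across genes, each over the 0.1 set for pairing, although replicates 2 and 3 also correlated crosswise (0.204 and 0.24); the numbers come from the titles only.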

Additional observations from a re-analysis of the deposited data

How the results depend on the processing

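All 84 results recomputed with DESeq2 size factors kept their direction and side of the threshold. Upper-quartile scaling gave 5 members higher, no filter 1 lower, and library totals 1 higher and 10 lower with a member median of -0.10 and 2825 genes higher and 4585 lower (3554 and 3397 with TMM). Library totals turned the uncalled log2 fold changes of Rpl10 (-0.12), Rpl11 (-0.19), Rpl22 (-0.071), Rpl22l1 (-0.037), Rpl4 (-0.068), Rpl7 (-0.00139), Rpl7a (-0.051), Rpl8 (-0.18) and Rps3 (-0.13), and upper quartiles Rpl11 (-0.039) and Rpl8 (-0.012). The replicate block gave 20 members higher and 3 lower, and changed no call of a named gene beyond those given beside the results. With replicates 2 and 3 summed, 0 members were higher and 0 lower, and 2292 and 1928 of all genes, in a fit of 4 samples; 22 calls of named genes were lost there, 10 of them of members. Leaving out 1 library gave 2 to 21 members higher, 0 to 5 lower and a member median of 0.051 to 0.20, with Rpl11 from -0.058 to 0.16, Rpl3 from -0.13 to 0.067, Rpl36al from -0.23 to 0.056, Rpl8 from -0.00387 to 0.10 and Rps3 from -0.030 to 0.24. Without replicate 1 of both groups, chosen after seeing the data, 35 members were higher and 10 lower, 5285 of all genes were lower, and Rpl11 (-0.052), Rpl3 (0.065) and Rpl36a (0.040) turned. The mean share of members without the 100 most abundant other genes was 2.22% in MA9+SETDB1 and 2.07% in MA9+EV. On the TMM scale it was 2.00% in MA9+SETDB1 and 1.65% in MA9+EV. The cause of these shifts was not tested. Read numbers limit the 17 tested members under 10 CPM.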
